A study of Mus musculus with 4 samples.

Results

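Ribosome biogenesis is the assembly of ribosomes in the nucleolus. RNA polymerase I (Pol I) makes the large ribosomal RNA precursor and RNA polymerase III (Pol III) makes 5S ribosomal RNA and transfer RNA, while the messenger RNAs of the proteins that process, modify and fold these RNAs are made by RNA polymerase II (Pol II). The results describe 49 genes of this kind among the 3117 genes listed in either of 2 deposited tables. They were chosen by symbol alone, with a fixed pattern that takes Pol I and Pol III subunits, small nucleolar ribonucleoprotein (snoRNP) proteins, assembly factors of both ribosomal subunits, RNA exosome subunits, nucleolar proteins and every numbered DDX (DEAD-box helicase) gene. All 49 were in the table for transcription start sites (TSS, 3112 genes) and 48 in that for transcription end sites (TES, 3030 genes); Ddx5 was in the first only. By known function 40 of them belong to ribosome biogenesis, Pol I or Pol III. The other 9 are Ddx1, Ddx3x, Ddx5, Ddx17, Ddx23, Ddx39, Ddx39b, Ddx42 and Ddx59. These DEAD-box genes have other main roles, such as splicing, RNA export or translation. They are counted among the 49 unless stated, and are also described as a group of their own below.

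The cells were mouse B16F10 melanoma cells, an established line, either parental (control, labelled WT) or lacking Carm1 (Carm1 KO, also called the knockout here), an arginine methyltransferase. In mNET-seq, nascent RNA held by immunoprecipitated Pol II after nuclease digestion is sequenced. The 4 libraries were 1 per genotype for Pol II phosphorylated at serine 2 of its carboxy-terminal domain (Ser2P), a form known for productive elongation, and 1 per genotype with antibody 8WG16 against that domain. Each library pooled 3 sets of cells, and the labels used here do not say how the knockout was made or whether it is 1 clone. Per gene, the tables give 1 Ser2P ratio for control and 1 for Carm1 KO at each end. A ratio has no unit, and the signal it is divided by is not given in the sources used here. The numerator and the divisor are not given apart, so either may differ where a ratio does, and a ratio is not an expression level. Read depth is unknown. With 1 library per group there is no spread between replicates, no test and no p-value: a gene is called higher or lower when its ratio differed at least 1.5-fold (0.58 on the log2 scale), which describes these libraries only. In what follows, paired ratios give control first and the knockout second, and the value in brackets is the log2 change. The knockout was not checked from Carm1's own value, which is not analysed here. Of 7 melanocyte marker genes 5 were listed at the TSS and 3 at the TES, which shows only that they are in the tables.

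At gene starts the 49 genes had low ratios and were higher in the knockout about as often as other genes. The median ratio was 0.0715 in control and 0.140 in the knockout, against 0.0809 and 0.166 over the whole table. Of the 46 genes above 0 in both conditions, 33 (71.7%) were higher and 4 (8.70%) lower in the knockout. Over all compared genes 71.2% were higher and 5.6% lower, so the share of higher genes was at the background. Without the 9 DEAD-box genes of other main roles, 26 of 37 (70.3%) were higher and 4 (10.8%) lower. On the log2 scale the median change of the 46 genes was 1.13, against 1.17 for all genes. The scaling between libraries is not given, and with the median of all genes subtracted the 46 genes were spread evenly, 13 higher (28.3%, background 28.6%) and 13 lower (background 28.8%). At gene ends the median ratio was 1.57 in control and 2.90 in the knockout. There 36 of 48 genes (75%) were higher, against a background of 66.7%, and 2 (4.17%) were lower, against 7.13%. The DEAD-box genes of other main roles were all higher there, 8 of 8. Without them, 28 of 40 (70%) were higher and 2 (5%) lower, nearer the background, with a median change of 1.03. The median change of the 48 genes was 1.02, against 0.85 for all genes, and 31 of them lay above that value and 17 below. With that median subtracted, 3 were higher (background 11.6%) and 6 lower (background 22%) by 1.5-fold. Gene length moved with this excess. Among genes of at most 25 kb, 31 of 37 of them (83.8%) were higher at the TES, close to 81.7% of all such genes, and 0 were lower, against 1.06%.

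**Figure D1:**
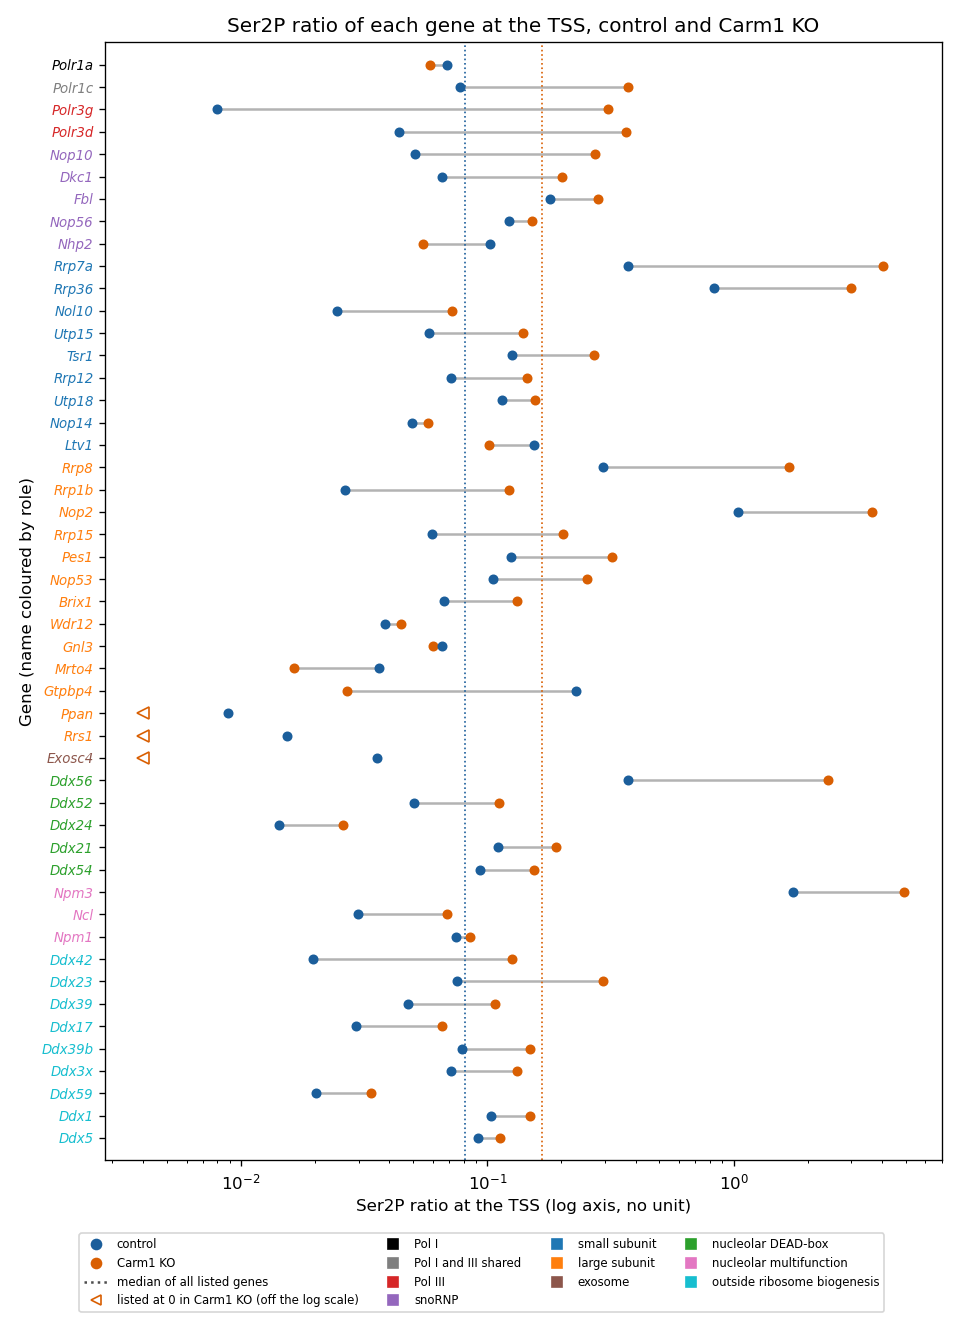
Ser2P ratio at the TSS (log axis) of the 49 genes in control (blue) and Carm1 KO cells (orange), with gene names coloured by role and dotted lines at the medians of all listed genes, 0.0809 and 0.166. Most pairs run to the right, and 6 genes (Npm3, Nop2, Rrp36, Ddx56, Rrp7a and Rrp8) stand far to the right of all others in the knockout; open triangles mark 3 genes listed at 0 there.

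**Figure D2:**
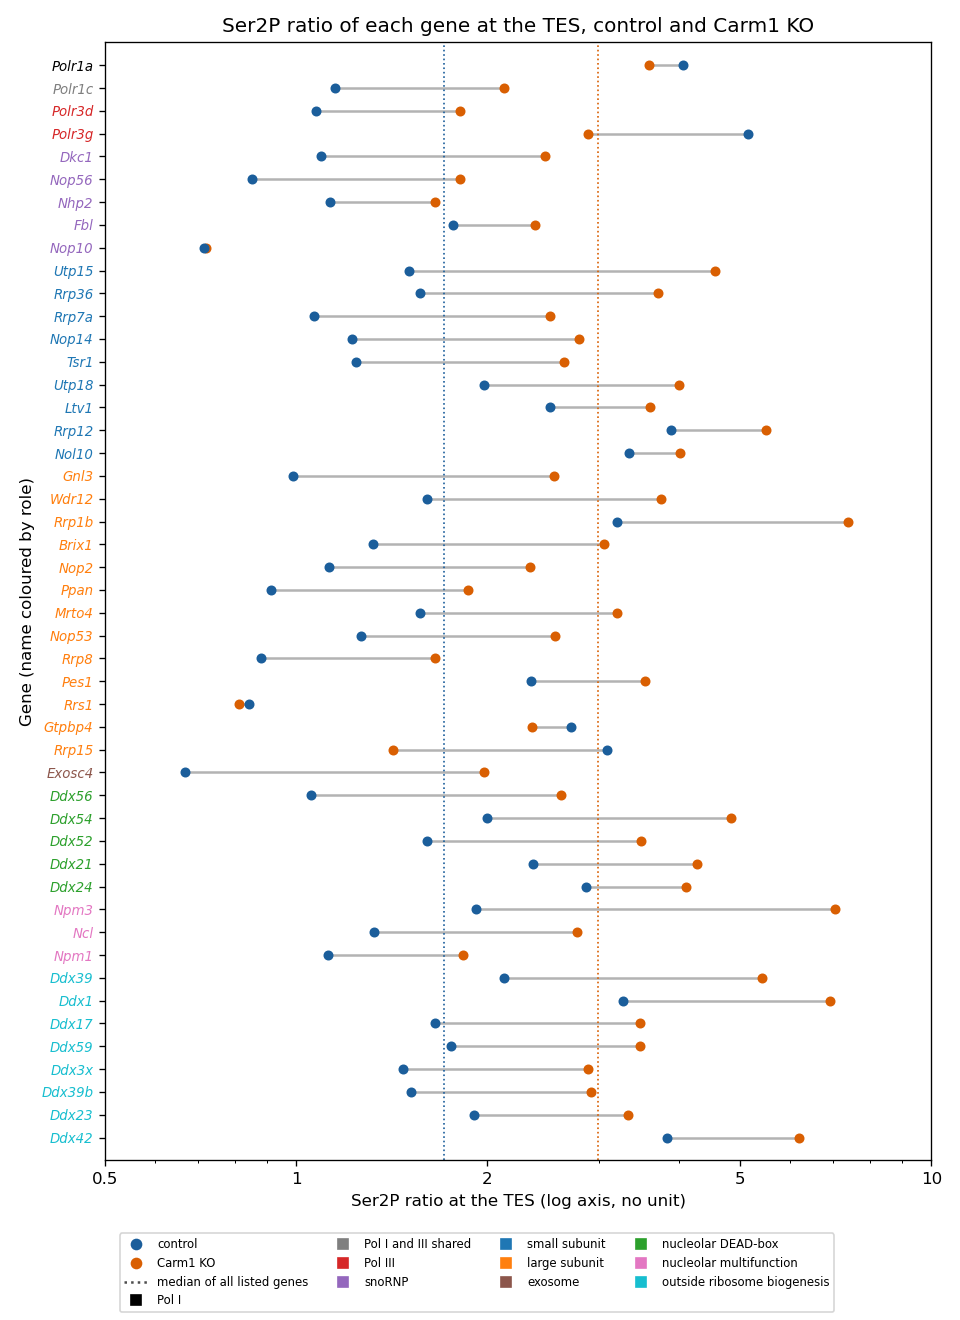
Ser2P ratio at the TES (log axis) of the 48 genes listed there, drawn in the same way, with dotted lines at 1.71 for control and 2.99 for Carm1 KO cells. The ratio was lower in the knockout at Polr1a, Polr3g, Rrs1, Gtpbp4 and Rrp15 and nearly equal at Nop10.

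Promoter sequences were compared because ribosome biogenesis genes are known targets of Myc, which binds the E-box with its partner Max. For 40 of the 49 genes the RefSeq promoter table (GRCm38.p6) gave the 250 bases before the start. These are not the 40 genes of the pathways. They include Ddx1, Ddx3x, Ddx5, Ddx17, Ddx39b, Ddx42 and Ddx59, which have other main roles, and lack some pathway genes. The E-box CACGTG, which reads the same on both strands, was present in 3 of the 40 (7.5%), at Nop2, Rrp7a and Utp18. It was in 276 of the promoters of 2504 listed genes (11.02%) and in 6.02% of all 32851 promoters in that table. The longer motif of the factor NRF1, searched on both strands, was also present in 3 of 40, against 9.86% of listed genes and 3.74% of all promoters. The GC box GGGCGG, on either strand, was present in 26 of 40 (65%), against 63.9% and 32.7%. The windows of the 3 genes with an E-box are shown with that of Polr3g, whose start ratio had the largest fold change. They run 5′ to 3′ on the gene's strand and end at the base before the RefSeq start, with E-boxes and GC boxes (GGGCGG or its reverse complement) in capitals. That of Utp18 is cut to 80 bases, before an annotated exon of its divergent neighbour Mbtd1.
Nop2, chr6:125131633-125131882, plus strand: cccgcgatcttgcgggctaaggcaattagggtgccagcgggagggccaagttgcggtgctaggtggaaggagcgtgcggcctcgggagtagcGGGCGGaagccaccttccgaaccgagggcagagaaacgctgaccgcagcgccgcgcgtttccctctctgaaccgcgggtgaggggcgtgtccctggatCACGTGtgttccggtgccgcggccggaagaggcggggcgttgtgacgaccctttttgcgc
Rrp7a, chr15:83122802-83123051, minus strand: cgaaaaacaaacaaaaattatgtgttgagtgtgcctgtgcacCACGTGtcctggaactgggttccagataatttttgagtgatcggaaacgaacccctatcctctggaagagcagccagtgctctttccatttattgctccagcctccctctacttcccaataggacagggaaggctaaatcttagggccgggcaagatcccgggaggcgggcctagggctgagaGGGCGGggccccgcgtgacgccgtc
Utp18, chr11:93885767-93885846, minus strand: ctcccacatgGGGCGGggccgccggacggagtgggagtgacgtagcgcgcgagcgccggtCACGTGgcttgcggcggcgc
Polr3g, chr13:81711014-81711263, minus strand: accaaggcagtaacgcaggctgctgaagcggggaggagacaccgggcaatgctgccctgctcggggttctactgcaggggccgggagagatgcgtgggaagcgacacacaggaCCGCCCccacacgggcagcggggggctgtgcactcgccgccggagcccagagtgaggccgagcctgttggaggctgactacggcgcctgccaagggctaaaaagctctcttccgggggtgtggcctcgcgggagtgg
The E-box began 60 bases before the start in Nop2, 208 bases before it in Rrp7a and 20 bases before it in Utp18, and no E-box overlapped a GC box. In Polr3g the GC box began 137 bases before the start. The 3 genes with an E-box had log2 changes of 1.80, 3.45 and 0.45 at the TSS and of 1.05, 1.24 and 1.02 at the TES. Genes without one had a median of 1.04 over 36 genes at the TSS and of 1.03 over 36 genes at the TES. Over all listed genes with a promoter the TSS medians were 1.08 for 258 genes with an E-box and 1.20 for 2028 without, and the TES medians 0.84 and 0.86. A match of letters is not a binding site, and binding was not measured.

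The Pol I and Pol III subunit genes differed widely among themselves at the start. Polr3g encodes a Pol III subunit that replaces its paralog Polr3gl in some cells. Its TSS ratio was 0.00797 in control and 0.310 in the knockout, 38.9-fold higher (log2 change 5.28). It spans chr13:81673843-81711013 on the minus strand (GRCm38). Its change stood at percentile 99.9 of all compared genes. At its end the order was the opposite, with 5.14 in control and 2.88 in the knockout (log2 change -0.84). These are coarse values: the TSS ratio was shared exactly with 1 other gene in control and with 8 in the knockout, and the TES ratio with 10 and 5. The start of Mblac2 lies within 1 kb of the start of Polr3g, and a start or end of Lysmd3 within 1 kb of its end. Signal from these neighbours was not tested.

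Polr3d, another Pol III subunit gene, went from 0.0438 to 0.366 at the TSS (log2 change 3.06) and from 1.07 to 1.81 at the TES (0.75). Its TSS ratio was coarse too, shared exactly with 7 other genes in control and 2 in the knockout. The end of Mir320 lies 0.144 kb from the start of Polr3d, but the count of upstream ends below takes protein-coding genes only. Polr1c, which encodes a subunit shared by Pol I and Pol III, had 0.0772 in control and 0.371 in the knockout at the TSS (2.26), against 1.15 and 2.12 at the TES (0.88). Both were higher at both ends, by more at the start. Polr1a, the gene of the catalytic subunit of Pol I, was on neither side of the threshold. Its ratio was 0.0682 in control and 0.0584 in the knockout at the TSS (-0.23), against 4.07 and 3.59 at the TES (-0.18), so it was the only one of these 4 genes below 0 at both ends.

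The proteins of the snoRNPs take part in chemical modification of ribosomal RNA. A box C/D class methylates riboses and a box H/ACA class makes pseudouridine. At the TSS 3 of the 5 genes were higher (60%, background 71.2%) and 1 lower, with a median change of 0.65, and at the TES 2 were higher (40%, background 66.7%) and 0 lower, with a median of 0.55. Both medians are below those of all genes, over only 5 genes. All 5 are at most 25 kb long, and of all genes up to that length 81.7% were higher at the TES, with a median of 0.97. Among the H/ACA genes, Dkc1, the pseudouridine synthase, was higher at both ends, with 0.0653 and 0.201 at the TSS (1.62), against 1.09 and 2.46 at the TES (1.17). Nop10, a small protein of the same particle, had 0.0510 and 0.273 at the TSS (2.42), but 0.716 and 0.720 at the TES (0.01). Nhp2, the third H/ACA gene listed, was lower in the knockout at the TSS, with 0.102 in control and 0.0548 in the knockout (-0.90), and had 1.13 and 1.65 at the TES (0.55). In these libraries the H/ACA genes listed thus did not share a direction at the start. The knockout TSS ratio of each was shared exactly with at least 1 other gene, so these values are coarse. In the C/D class, Nop56 had 0.122 and 0.152 at the TSS (0.32), against 0.853 and 1.81 at the TES (1.08), and the methyltransferase gene Fbl had 0.180 and 0.282 at the TSS (0.65), against 1.76 and 2.37 at the TES (0.43).

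Of 9 genes for small subunit assembly, 6 were higher (66.7%, background 71.2%) and 1 lower at the TSS, with a median of 1.10 against 1.17 for all genes. At the TES 6 were higher (66.7%, equal to the background) and 0 lower, with a median of 1.09 against 0.85. Utp15 and Utp18 encode subunits of the small subunit processome, which folds and cuts the early precursor. At its end Utp15 had 1.503 in control and 4.56 in the knockout (1.60), the largest TES change of the 9, with 0.0577 and 0.140 at the TSS (1.28). Utp18 had 1.98 and 4.01 at the TES (1.02) but 0.114 and 0.157 at the TSS (0.45), below the threshold. Nop14 was alike, with 1.22 and 2.79 at the TES (1.19), against 0.0495 and 0.0575 at the TSS (0.22). Ltv1, a late factor for export of the small subunit, was the gene lower at the TSS, with 0.155 in control and 0.101 in the knockout (-0.61), and had 2.51 and 3.61 at the TES (0.52). Tsr1, a late GTPase-like factor, was higher by nearly the same factor at both ends (1.10 and 1.09). Rrp12 and Nol10, of 33.3 and 81.6 kb, had the smallest TES changes (0.50 and 0.27) beside 1.02 and 1.55 at the TSS. Rrp7a and Rrp36 are described with the high start ratios below.

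The 13 genes for large subunit assembly were the most varied at the start. Of the 11 compared there, 7 were higher (63.6%, background 71.2%) and 2 lower (18.2%, background 5.6%), with a median of 1.26, and 2 were at 0 in the knockout. At the TES 10 of 13 were higher (76.9%, background 66.7%) and 1 lower. Gtpbp4, a nucleolar GTPase of early 60S particles, had 0.228 in control and 0.0268 in the knockout (log2 change -3.09), one of the 3 largest decreases at the TSS among the 2859 genes compared. Its TSS ratio was coarse, shared exactly with 1 other gene in control and with 4 in the knockout. Its TES ratio was 2.71 in control and 2.35 in the knockout (-0.21). Mrto4, which holds the place of the ribosomal stalk, was also lower at the TSS, with 0.0363 and 0.0164 (-1.15), and higher at the TES, with 1.57 and 3.20 (1.03). It was the only gene of the 45 with 4 values above 0 that passed the threshold downward at the start and upward at the end, 2.22% against a background of 3.42%.

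Rrs1, needed for 5S particle recruitment, and Ppan were listed at 0 at the TSS in the knockout, with 0.0153 and 0.00886 in control, as was the exosome gene Exosc4, with 0.0355 in control. These 3 of 49 genes (6.12%) compare with 4.88% of all TSS genes listed at 0 in the knockout only. Their control ratios are low and no fold was computed. At the TES, Ppan had 0.911 and 1.86 (1.03) and Exosc4 had 0.667 and 1.98 (1.57), so both were higher there, while Rrs1, a gene of 2.05 kb, had 0.841 and 0.812 (-0.05).

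Rrp15 was higher at the TSS, with 0.0597 in control and 0.203 in the knockout (1.76), and lower at the TES, with 3.08 and 1.42 (-1.12). Polr3g and Rrp15 were the only genes of the 45 with such opposite calls (background 4.58%), and were the 2 lower genes at the TES. The control TES ratio of Rrp15 was shared exactly with 20 other genes, so it too is coarse. Of the other large subunit genes, Gnl3, a nucleolar GTPase also known as nucleostemin, had the largest TES change, with 0.987 and 2.54 (1.36), while its TSS ratio was 0.0654 and 0.0599 (-0.13). Wdr12 showed 1.23 at the TES and 0.21 at the TSS. Its partner in the PeBoW complex, Pes1, had 1.37 at the TSS and 0.60 at the TES, so the changes at the 2 ends were ordered differently in these partners. The knockout TSS ratio of Wdr12 was coarse, shared exactly with 7 other genes, and Wdr12 is over 25 kb long while Pes1 is not. Rrp1b was higher at both ends, with 0.0264 and 0.122 at the TSS (2.21), against 3.20 and 7.40 at the TES (1.21), and Brix1 (0.98 and 1.21) and Nop53 (1.26 and 1.02) were too.

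All 5 nucleolar DEAD-box helicase genes, Ddx21, Ddx24, Ddx52, Ddx54 and Ddx56, were higher at the TSS, where 71.2% of all genes were, with a median of 0.86 that is below the 1.17 of all genes. At the TES 4 of 5 were higher, against 66.7% of all genes, with a median of 1.12 against 0.85. All 5 are at most 25 kb long. Of all genes up to that length 81.7% were higher at the TES, with a median of 0.97, so this share was near that of short genes. At the TSS the changes of Ddx52 and Ddx21 were 1.16 and 0.78. Ddx24 was the exception at the TES, with 2.86 and 4.10 (0.52). Ddx54 had 0.0935 and 0.154 at the TSS (0.72), against 1.99 and 4.84 at the TES (1.28). The abundant nucleolar protein genes Ncl and Npm1 were higher at the TES, by 1.06 and 0.71, and Ncl also at the TSS (0.0298 and 0.0686, log2 change 1.20), where Npm1 had 0.0747 and 0.0852 (0.19). Npm3, a relative of Npm1, had the largest TES change of all 48 genes, with 1.92 in control and 7.04 in the knockout (1.88, 3.67-fold). Of the 9 DEAD-box genes outside ribosome biogenesis, 7 were higher at the TSS (77.8%, background 71.2%) and 8 of 8 at the TES (background 66.7%), with medians of 0.92 and 0.98. Only Ddx1 and Ddx42 of these are over 25 kb, and the TES background of genes up to 25 kb was 81.7%. At the TES their changes lay between 0.69 at Ddx42 and 0.80 at Ddx23 and, at the upper end, 1.08 at Ddx1 and 1.35 at Ddx39. Ddx42, a splicing-associated helicase gene, had the largest TSS change of them, from 0.0195 to 0.126 (2.68), Ddx23 had 1.97 there, and Ddx1 (0.52) and Ddx5 (0.30) were below the threshold.

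**Figure D3:**
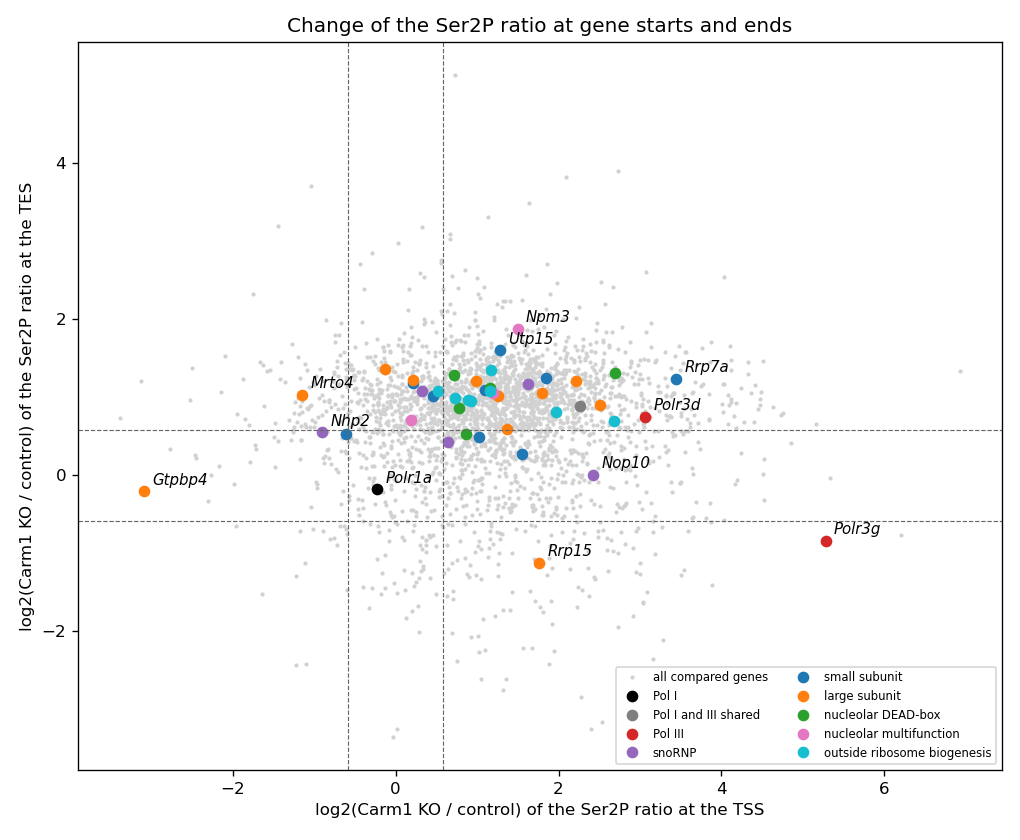
Log2 change of the Ser2P ratio at the TSS (x) and TES (y) for the 45 genes with 4 values above 0, coloured by role, over all compared genes in grey; dashed lines mark 1.5-fold. Most coloured points lie in the upper right with the grey cloud, with Polr3g (5.28 and -0.84), Rrp15 and Gtpbp4 (-3.09 and -0.21) apart from the others.

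Across these 45 genes, 26 were higher at both ends (57.8%, background 49.2%) and 0 lower at both. Lower calls at both ends were rare among all genes too, 17 of 2775. The TES ratio divided by the TSS ratio compares the 2 ends, but Ser2P or the unknown divisor at either end may move this quotient. Over the 45 genes it had a median of 20.7 in control and 23.2 in the knockout. Over all 2775 genes with 4 values above 0 the medians were 19.5 and 15.7. The quotient was smaller in the knockout for 24 of 45 genes (53.3%), against a background of 63.4%. The extremes were Polr3g, whose quotient was 645 in control and 9.29 in the knockout, and Gtpbp4, with 11.9 and 87.5. Both rest on coarse start ratios that were shared exactly with other genes. In control cells no gene of the 45 had a higher ratio at its start than at its end (0 of 45, background 2.99%). In Carm1 KO cells 3 did (background 6.16%): Nop2, with 3.64 at the TSS and 2.33 at the TES, Rrp7a, with 4.06 and 2.51, and Rrp8, with 1.68 and 1.65.

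A small set of genes had start ratios far above the rest, and each of them starts close downstream of another gene. In control cells 6 genes had a TSS ratio above 0.25, and the same 6 were the only ones above 1 in the knockout, where the next was Polr1c at 0.371. Npm3 had 1.74 in control and 4.92 in the knockout, above 99.5% and 99.3% of all listed genes. Nop2, a ribosomal RNA methyltransferase gene, had 1.04 and 3.64, and Rrp36, of the small subunit processome, had 0.829 and 2.99. At their ends these 3 genes had log2 changes of 1.88, 1.05 and 1.25. Ddx56 had 0.374 and 2.43, Rrp7a had 0.373 and 4.06, and Rrp8, an rRNA methyltransferase gene, had 0.294 and 1.68, with log2 changes at their ends of 1.31, 1.24 and 0.91. In all 6 the end of a protein-coding gene on the same strand lies within 5 kb upstream (GENCODE M21): Mgea5 at 0.668 kb from Npm3, Chd4 at 1.32 kb from Nop2, Klhdc3 at 0.198 kb from Rrp36, Tmed4 at 2.60 kb from Ddx56, Poldip3 at 3.17 kb from Rrp7a and Taf10 at 2.01 kb from Rrp8. The distance and both limits were chosen after these values were seen.

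Such a gene end was present for 10 of the 49 genes (20.4%) and for 532 of 3072 annotated genes in the TSS table (17.3%). The 10 genes had a median control ratio of 0.333, and the other 39 one of 0.0597, none above 0.228. In the whole table the medians were 0.514 for the 532 genes and 0.0699 for the rest, but the split was not complete: 336 of the 532 genes (63.2%) and 182 of the other 2540 (7.17%) were above 0.25 in control cells. In the knockout 324 of the 532 and 123 of the other 2540 were above 1. In Carm1 KO cells the medians of the 10 and the 39 were 2.05 and 0.113. The median log2 change was 1.83 over the 10 and 0.94 over the 36 compared without such an end, and over all TSS genes it was 1.49 and 1.05. Among the 36, 23 (63.9%) were higher, against 66.8% of such genes in the whole table. The other 4 of the 10 had lower start ratios in control cells: 0.180 at Fbl, 0.106 at Nop53, 0.0787 at Ddx39b and 0.0750 at Ddx23.

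For 3 of the upstream genes the tables give an end ratio, so that both can be set side by side. At the end of Mgea5 the ratio was 1.62 in control and 4.87 in the knockout, and at the start of Npm3 it was 1.74 and 4.92. The end of Klhdc3 had 0.803 and 2.66, and the start of Rrp36 0.829 and 2.99. The end of Taf10 had 0.842 and 1.74, and the start of Rrp8 0.294 and 1.68. The start and end ratios were close in both conditions for Npm3 and Rrp36, while in control cells the start of Rrp8 was well below the end of Taf10. The sources used here do not give the widths of the authors' windows. The part of signal from the upstream gene in these start ratios was not tested.

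**Figure D4:**
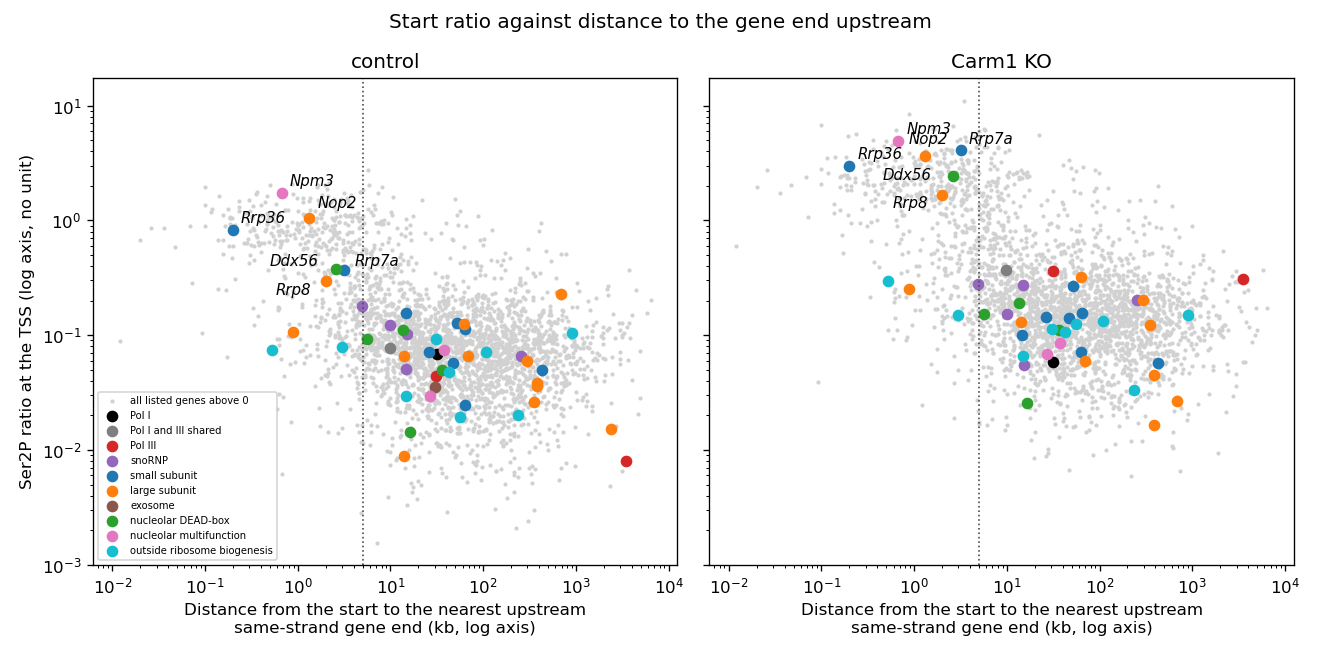
TSS ratio (log axis) against the distance in kb (log axis) from the gene's start to the nearest upstream end of a protein-coding gene on the same strand, in control (left) and Carm1 KO cells (right); coloured points are the 49 genes by role (those above 0), grey points all listed genes above 0, and the dotted line marks 5 kb. The 6 labelled genes lie left of the line and above 0.25 in control cells and above 1 in the knockout.

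Length moved with the change at gene ends. The 49 genes had a median annotated length of 13.1 kb, against 18.1 kb for all listed genes. The 37 genes of at most 25 kb had a median TES change of 1.03, against 0.97 for all such genes. The 11 longer ones had a median of 0.50, against 0.40, with 5 higher (45.5%, background 44.1% of all genes over 25 kb) and 2 lower (18.2%, background 16.1%), so both shares were near those of other long genes. Of the 5 genes with a TES change below 0, Polr1a, Polr3g, Rrp15 and Gtpbp4 are longer than 25 kb, and Rrs1 is short. Rrp1b and Wdr12, of 26.8 and 28.9 kb, nevertheless had changes of 1.21 and 1.23.

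**Figure D5:**
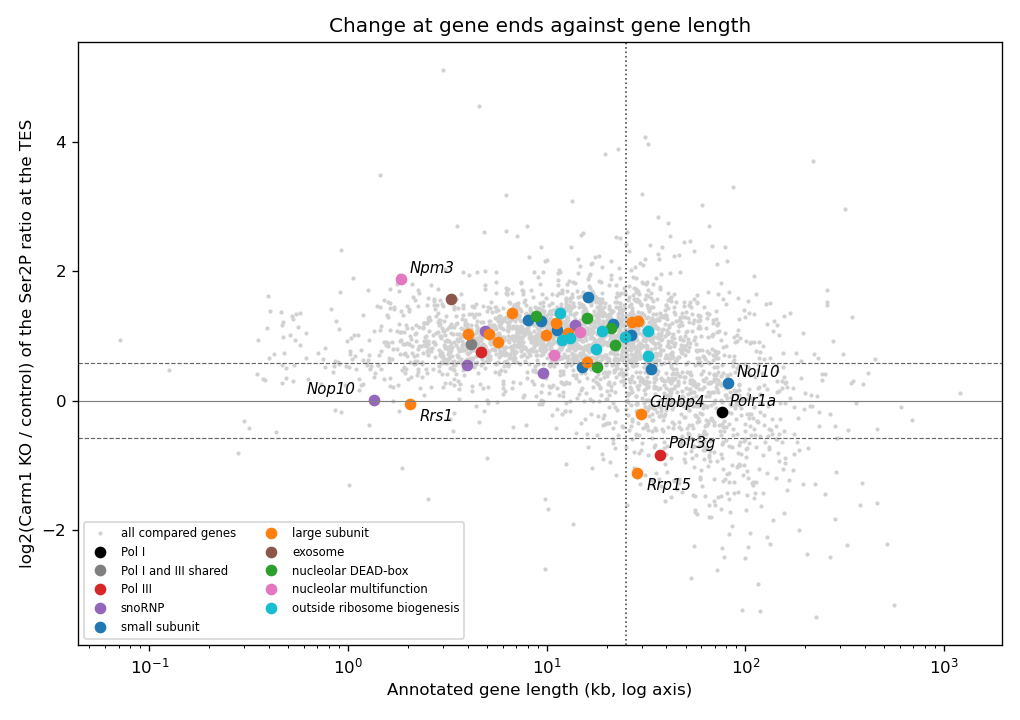
Log2 change of the TES ratio against annotated gene length in kb (log axis) for the 48 genes, coloured by role, over all compared genes in grey; the dotted line marks 25 kb and dashed lines 1.5-fold. Coloured points up to 25 kb lie mostly between 0.5 and 1.6, and both genes lower by 1.5-fold, Polr3g and Rrp15, lie to the right of that line.

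Genes of the same pathways that the symbol pattern does not take were counted in the same way. Of 110 symbols in 5 lists, 35 were listed and compared at both ends. At the TSS 28 were higher (80%, background 71.2%) and 0 lower (background 5.6%), with a median of 1.10 against 1.17 for all genes. At the TES 27 were higher (77.1%, background 66.7%) and 2 lower (5.71%, background 7.13%), with a median of 0.94 against 0.85. All 3 Pol I factor genes were higher at both ends (background 49.2%), a count too small to set against that share. Rrn3, which recruits Pol I to its promoter, had 0.94 at the TSS and 1.02 at the TES, Taf1b 0.80 and 0.79, and Taf1d 1.38 and 0.95. Of 5 Pol III factor genes 4 were higher at the TSS and 5 at the TES, counts also too small to set against the shares of all genes. Maf1, the repressor of Pol III, had the largest TSS change of these, with 0.334 and 2.58 (2.95), and Gtf3c2, a subunit of TFIIIC, the smallest, with 0.206 and 0.165 (-0.32). Maf1 and some other genes of the 5 lists, such as Snapc2, had start ratios above 0.25 in control and above 1 in the knockout. Upstream gene ends are not reported for these lists. At the TES Gtf3c6 had 1.39 and Snapc5 0.61.

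Of 13 further small subunit genes 12 were higher (92.3%, background 71.2%) and 0 lower (background 5.6%) at the TSS, and 10 were higher (76.9%, background 66.7%) and 1 lower (7.69%, background 7.13%) at the TES. Aatf had the largest TSS change, with 4.08, and Wdr75 the smallest, with 0.44. At the TES Fcf1 had 1.20, and Rbm19 was lower, with 4.63 in control and 1.94 in the knockout (-1.25). Of 12 further large subunit genes 7 were higher at the TSS (58.3%) and 8 at the TES (66.7%, equal to the background), with 0 lower at either end. Ebna1bp2 had 3.51 and Nsa2 -0.53 at the TSS, and Eif6, which keeps the subunits apart, had 1.45 and the AAA ATPase gene Mdn1 -0.18 at the TES. Of the cofactors, Shq1, a chaperone of Dkc1, had 1.03 at the TSS but 3.53 in control and 0.732 in the knockout at the TES (-2.27), and Ruvbl2 had 0.69 and 1.03.

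Many of the values are coarse, which limits what single genes show. At the TSS 32 of the 49 genes, and at the TES 16 of 48, had at least 1 ratio that was exactly that of another gene. Shared values were common among all genes too. Only 1011 of the 2859 compared at the TSS, and 1895 of 3016 at the TES, had none. With all such genes left out, 12 of 15 genes were higher (80%) and 0 lower at the TSS, against 77.5% and 2.87% of all such genes, and 27 of 32 were higher (84.4%) and 0 lower at the TES, against 73.6% and 3.48%. Each of the lower calls at these 49 genes was at a gene with at least 1 shared value, and with so few genes left a count of 0 is near the background.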

How the data were processed

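The authors deposited, per the file headers, 1 table per gene end with a Ser2P value per gene for control and Carm1 KO cells and their difference. The headers call the values fractions, but the highest is 36.0 for control and 38.9 for Carm1 KO, so they are taken as a linear ratio deposited by the authors; the difference column, which equalled Carm1 KO minus control within 1e-09 in all genes, was not used. Columns were assigned to groups by the cells and signal in their names. cutadapt 1.18, TopHat2 2.1.1, mm10 and GRCm38 are named per the submitters' processing notes; the sources used here do not give windows, scaling, strand setting or gene choice. No columns of other samples were present.

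Genes above 0 in both conditions were compared as log2(Carm1 KO / control) with no pseudocount (2859 at the TSS, 3016 at the TES), with calls at 1.5-fold. The step that makes the calls was tested on simulated data for its arithmetic only, which says nothing of how reliable a call is. Gene positions came from GENCODE M21 (GRCm38), matched by symbol without regard to case for 3077 of 3117 genes and all 49 described; promoters came from RefSeq (GRCm38.p6). Python 3.11.15 and pandas 2.3.3 were used. The genes, role lists and motifs were chosen with earlier results of these data known. Genes were named by rule: all Pol I and Pol III subunits, per role the 2 largest and 2 smallest changes at each end, genes at 0, genes with lower or opposite calls, and the extremes of each further list; others were chosen after their values were seen. Alternatives covered threshold, centring, pseudocount, low and shared values, membership, neighbouring genes and length.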

Additional observations from a re-analysis of the deposited data

How the results depend on the processing

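Of 51 values recomputed under other settings, counts within 1.5 times and medians within 0.1 of the reported ones were taken as unchanged, which held for 34. That number includes the medians at 2-fold, which a threshold for calls cannot move. With the median of all genes subtracted, the median change at the TSS turned to -0.041 and that at the TES became 0.17, with 13 genes higher and 13 lower at the TSS and 3 higher and 6 lower at the TES. At 2-fold, 2 genes were lower at the TSS and 1 at the TES. With genes of shared values left out, 12 were higher and 0 lower at the TSS, with a median of 1.26, and 0 were lower at the TES. Leaving out genes with a neighbouring start or end within 1 kb gave 13 higher at the TSS, of 19, and 1 lower at the TES. Without the DEAD-box genes outside ribosome biogenesis, 26 of 37 were higher and 4 lower at the TSS. At the TES 28 of 40 were then higher and 2 lower. Among genes up to 25 kb 0 were lower at the TES. A pseudocount of 0.01 gave a TSS median of 0.93, and leaving out genes with an upstream end within 5 kb, added after seeing the data, 0.94. Where fewer genes enter, counts drop by construction; otherwise the cause was not tested. No paired analysis was possible because each group has 1 library. Depth is unknown, so counting error could not be given.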
